A study of Mus musculus with 8 samples.

Results

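The genes described here move fatty acids into liver cells, carry them through the cytosol, hold triglyceride in lipid droplets, and build and load it onto lipoproteins: Cd36, Plin2, Fabp1, Fabp2, Fabp4, Fabp5, Lpl, Lipc, Mttp and Dgat1. All probe sets whose only gene symbol in the platform annotation was one of these names were taken. They numbered 13 of the 12488 probe sets on the array and covered 9 of the 10 genes. Lipc, which encodes hepatic lipase, had no probe set under that rule and was not analysed here. The group was chosen by function, not by its signal, though earlier results of these data were known.

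The samples were livers of 8 female Ames dwarf mice (df/df) that ate standard pelleted food freely and died at an age of 24 to 26 months. Each liver was measured on its own Affymetrix mouse U74Av2 array, and livers carry the number in their titles. Ames dwarf mice have a defective pituitary gland and are deficient in the hormones GH, TSH and prolactin. No other genotype, diet, sex or age was analysed here, so every result is a level or a difference among these 8 livers, and none shows an effect of the dwarf genotype, which all 8 share. Values are deposited intensities on a linear scale, called signals below. A signal depends on each probe set's own hybridization, so levels were not compared between genes. In whole liver RNA, fewer cells of a type cannot be told apart from less RNA in each cell.

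Fatty acids reach hepatocytes from the blood, partly set free from circulating triglyceride by lipases, and enter with the help of membrane proteins such as Cd36. Inside the cell they are bound by small fatty acid binding proteins, activated to acyl-CoA, and either burned, esterified to triglyceride or signalled through the nuclear receptor PPARα. Triglyceride is kept in droplets coated by perilipins, or is loaded onto apolipoprotein B and secreted. Adult liver makes much Fabp1 and little Lpl, while Fabp4 is typical of adipocytes and macrophages and Fabp2 of the small intestine.

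The 250 bases before the start sites of Fabp1, Plin2 and Cd36 are shown because these genes are known PPARα targets and their signals are set against other PPARα targets below. The sequences are from RefSeq (GRCm38.p6) and read 5′ to 3′ on the gene's strand. Capitals mark the hexamer AGGTCA, a core element bound by nuclear receptors, or its reverse complement TGACCT, searched on both strands. Fabp1 lies at chr6:71199629-71199878 on the plus strand, Plin2 at chr4:86670060-86670309 on the minus strand, and Cd36 at chr5:17835897-17836146 on the minus strand.
Fabp1: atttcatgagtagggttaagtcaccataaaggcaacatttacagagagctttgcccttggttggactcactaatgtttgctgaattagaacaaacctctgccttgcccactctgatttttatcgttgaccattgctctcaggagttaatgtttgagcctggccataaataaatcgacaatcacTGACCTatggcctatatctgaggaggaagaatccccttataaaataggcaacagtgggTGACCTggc
Plin2: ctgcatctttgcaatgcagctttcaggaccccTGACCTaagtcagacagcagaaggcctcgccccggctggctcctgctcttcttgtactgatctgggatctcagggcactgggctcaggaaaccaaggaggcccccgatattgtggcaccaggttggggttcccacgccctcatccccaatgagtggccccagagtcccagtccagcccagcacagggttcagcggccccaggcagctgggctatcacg
Cd36: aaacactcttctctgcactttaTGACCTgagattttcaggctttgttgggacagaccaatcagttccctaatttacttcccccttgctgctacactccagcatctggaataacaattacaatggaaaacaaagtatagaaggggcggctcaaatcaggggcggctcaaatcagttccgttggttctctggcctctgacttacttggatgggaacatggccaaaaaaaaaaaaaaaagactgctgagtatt
The hexamer started 67 and 9 bases before the Fabp1 start site, 218 bases before that of Plin2 and 228 bases before that of Cd36. It was found in 14.0% of the 32851 windows of the same length in the table. PPARα binds best to AGGTCA hexamers in pairs separated by 1 base. An exact pair of this kind, with any base between, was in 0.0335% of all windows and in 0 of these 3. Pairs with mismatched bases were not searched. In the Fabp1 window the hexamer 67 bases before the start is followed, after 1 base, by TGGCCT, which differs from TGACCT at 1 base. The letters TATAAA on the gene's strand or its complement occurred in 12.4% of windows, and the Fabp1 window held them 30 bases before the start. Windows were also matched for Fabp2, Mttp and Lipc, so 6 of the 10 genes had a window. The hexamer was absent from those of Fabp2 and Mttp. Of the windows of Lipc, 1 lacked it and the other held it 88 and 76 bases before the start. These matches describe letters in a window and do not show binding.

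Of the 13 probe sets, 7 had a mean log2 signal in the upper part of the array, beyond the median signal of 162, and were tested. They covered Plin2, Fabp1, Fabp2, Fabp5, Lpl, Mttp and Dgat1, with 1 probe set each, among 6211 tested probe sets. The Cd36 and Fabp4 probe sets and the second probe sets of Fabp1, Lpl and Dgat1 had mean log2 signals below that limit and are described without a test, apart from those run with no filter. A gene's spread was tested in 2 ways, both one-sided with Benjamini-Hochberg adjustment over all tested probe sets. limma's moderated variance test asks whether a variance exceeds what the spread of all variances allows. The typical-variance test asks only whether a gene's variance exceeds that of a typical gene with its signal. It was first chosen in earlier work on these data, after values were seen.

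Lpl, Fabp5 and Mttp varied most among the livers, and by the typical-variance test these 3 of the 7 tested probe sets exceeded typical genes of their signal. That test called 11.3% of all tested probe sets. limma's test called 0 of the 7 and 0% of the table at an adjusted p of 0.05. At an unadjusted p of 0.05 it called 2 of the 7, Lpl and Fabp5, and 6.84% of the table. The median fold range between the highest and the lowest liver was 1.79 over the 7 and 1.63 over all tested probe sets. The median log2 SD was 0.315 over the 7 and 0.235 over all.

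**Figure D1:**
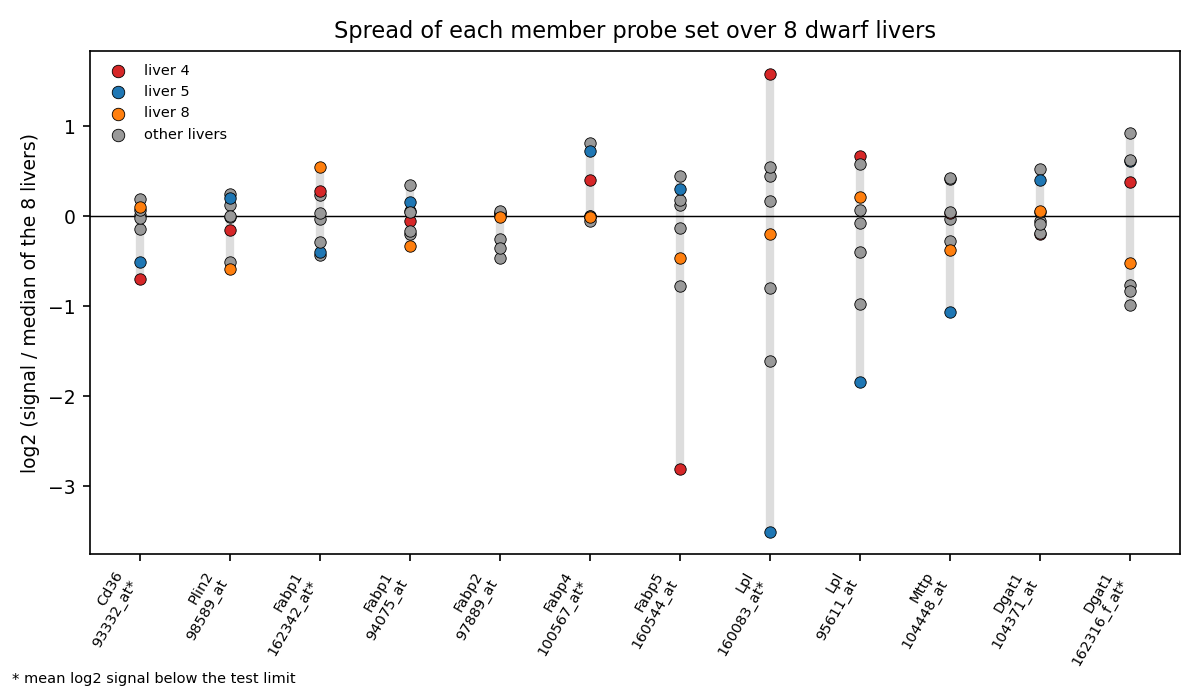
Signal of each probe set of the group in each of the 8 livers (points), as log2 of the signal over that probe set's median, on the vertical axis; grey bars run from the lowest to the highest liver, and livers 4, 5 and 8 are coloured. Asterisks mark probe sets whose mean log2 signal is below the test limit, a signal of 162; the Cd36 probe set with all signals below the floor is not drawn. Fabp5 falls furthest in liver 4 and both Lpl probe sets in liver 5.

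Lpl encodes lipoprotein lipase, which splits triglyceride in circulating lipoproteins and is made mostly by adipose tissue and muscle, and in liver in part by macrophages. Its tested probe set read 189 in liver 5, 676 at the median and 1079 in liver 4. The mean was 659 ± 307 (SD, n = 8). Liver 7 came next to liver 4 at 1008, and livers 1 and 5 lay lowest, with 346 in liver 1. The range was 5.70-fold with a log2 SD of 0.84, and it passed the typical-variance test (adjusted p = 6.85e-14) but not limma's (adjusted p = 0.335). Without liver 5, the log2 SD was 0.57 and the typical-variance call held (adjusted p = 1.61e-05).

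The second Lpl probe set ran the same way among the livers. It was lowest in liver 5, at 17.7, and highest in liver 4, at 602, with a median of 201 and a mean of 221 ± 182 (SD, n = 8). Its 34.0-fold range starts from a signal near the floor of 11.2 and is imprecise at that end. With no filter on low values it passed the typical-variance test (adjusted p = 9.04e-18), which then called 8.22% of 12422 probe sets. Across the 8 livers the log2 signals of both Lpl probe sets correlated with r = 0.936 (exact permutation p = 0.00139) and Spearman's rho = 0.881 (exact permutation p = 0.00724). Without livers 4 and 5, the farthest from the median, r was 0.769. Among 3066 same-gene pairs of probe sets with no filter, the Lpl pair had an adjusted p of 0.109, and 8 pairs or 0.261% passed. The median r of those pairs was 0.126.

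**Figure D2:**
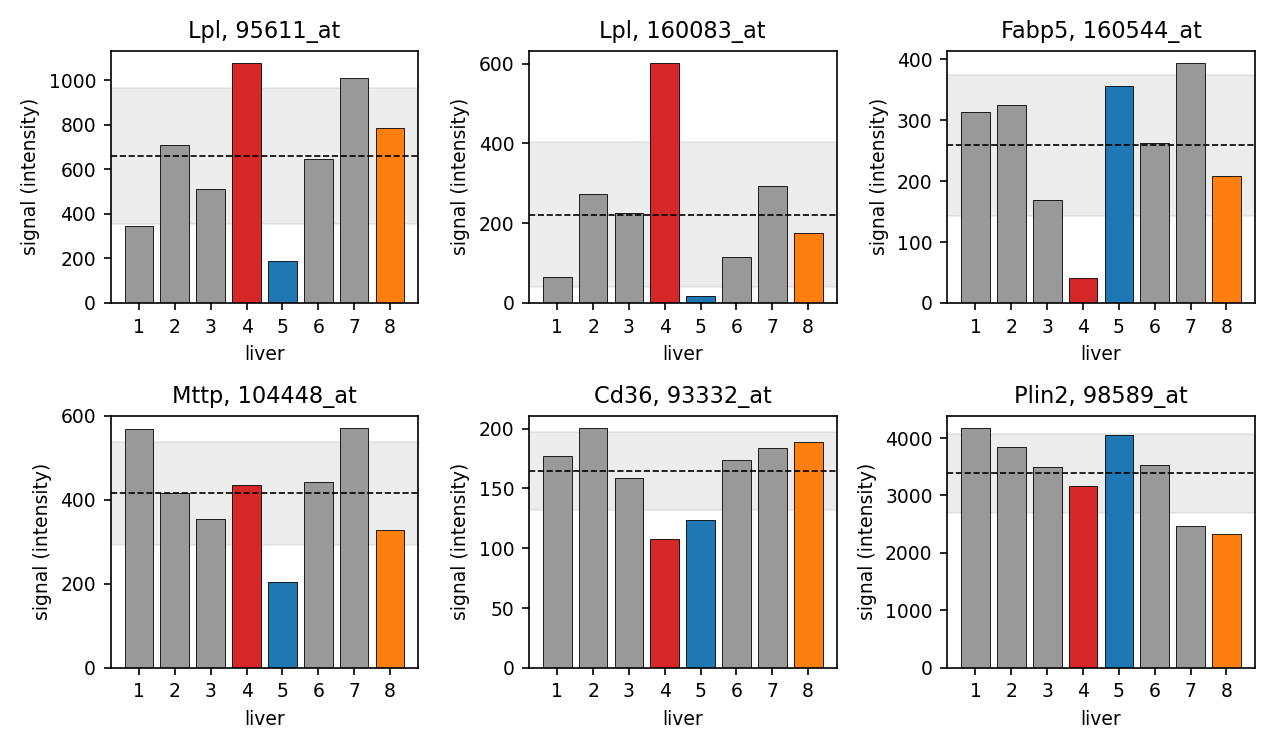
Signal (linear intensity, vertical axis from 0) in each of livers 1 to 8 for 6 probe sets of the group; the dashed line is the mean over the 8 livers and the grey band 1 SD on either side, with livers 4, 5 and 8 coloured. Both Lpl probe sets are lowest in liver 5 and highest in liver 4, Fabp5 stands at 41.2 in liver 4, and Plin2 is lowest in livers 7 and 8.

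Cd36, a membrane receptor that takes up long-chain fatty acids, was read at a mean of 164 ± 32.6 (SD, n = 8). Its lowest signal was 108 in liver 4, its median 175 and its highest 201 in liver 2. Liver 5 came next to lowest at 123, and the other 6 livers lay between 159 and 201. The range was 1.86-fold with a log2 SD of 0.32. The mean log2 signal fell just under the test limit, and with no filter on low values Cd36 did not pass the typical-variance test (adjusted p = 1.0). The second Cd36 probe set read 1.0 to 3.5, below the floor in all 8 livers, and gives no level.

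Fabp1, the liver fatty acid binding protein and a classical PPARα target, was read at 18701 ± 2817 by its tested probe set (SD, n = 8). It was lowest in liver 8, at 14919.8, and highest in liver 3, at 23769.7, with a median of 18731. The 1.59-fold range and log2 SD of 0.21 did not pass the typical-variance test (adjusted p = 0.833). The other Fabp1 probe set read 74.5 to 147 and did not follow it (r = -0.277, exact permutation p = 0.504, n = 8). Fabp1 and the median intensity of the arrays correlated negatively before adjustment (r = -0.818, exact permutation p = 0.0163, rho = -0.881). That relation had an adjusted p of 0.217 over the table, and r was -0.34 without livers 3 and 8.

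Fabp2, the intestinal binding protein, read 513 in liver 3, 733 in liver 6 and 704.5 at the median, with a mean of 655 ± 88.3 (SD, n = 8). Livers 2, 3 and 7 lay lowest, at 591, 513 and 552, and the other 5 lay between 701 and 733. Its 1.43-fold range was the narrowest among the 7 and did not pass the typical-variance test (adjusted p = 1.0). Of 5 markers of intestinal epithelium on the array, 3 were below the test limit in all 8 livers: Vil1, a brush-border protein, read 2.8 to 7.0, Lct, the enzyme lactase, 17.6 to 64.4, and Cdx2, an intestinal transcription factor, 6.8 to 35.8. Of the other 2, Krt20, an epithelial keratin, read 45.2 to 162.8, and Apoa4, an apolipoprotein that liver also makes, read 672 to 1167.

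Fabp4, the binding protein of adipocytes and macrophages, read 82.1 to 149 with a median of 85.05 and a mean of 103 ± 27.8 (SD, n = 8). Livers 2, 4 and 5 lay above 110, at 149, 113 and 141, and the other 5 lay between 82.1 and 85.1. All 8 signals were below the test limit. Of 6 fat-cell markers on the array, 4 were below it in all 8 livers. Among these, Adipoq, which encodes adiponectin, Retn, which encodes resistin, and Cidea, a droplet protein, read 23.5 to 79.3, 8.2 to 20.0 and 24.9 to 61.5. The other 2 were above it in all 8 livers. Car3, a carbonic anhydrase that liver also makes, read 9415 to 15080.5, and Lep, which encodes leptin, read 610.2 to 1388 by 1 of its 2 probe sets.

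Fabp5, the epidermal fatty acid binding protein, also made by macrophages, had the widest range of the tested genes in the group. It read 41.2 in liver 4, 288 at the median and 394 in liver 7, with a mean of 259 ± 115 (SD, n = 8). Livers 3 and 8 followed liver 4 at 169 and 209, and the other 5 lay between 263 and 394. The 9.57-fold range and log2 SD of 1.06 passed the typical-variance test (adjusted p = 1.96e-11) but not limma's (adjusted p = 0.398). The call rested on liver 4: without it the log2 SD was 0.44 and the adjusted p 0.182.

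Plin2 encodes perilipin 2, the main coat protein of hepatocyte lipid droplets, whose amount follows stored triglyceride. It read 2335 in liver 8, 3510.1 at the median and 4181 in liver 1, with a mean of 3383 ± 687 (SD, n = 8). Livers 7 and 8 lay lowest, at 2469 and 2335, and the other 6 between 3171 and 4181. The 1.79-fold range and log2 SD of 0.32 passed neither test (typical-variance adjusted p = 0.267).

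Dgat1 encodes an acyltransferase of the last step of triglyceride synthesis. Its tested probe set read 345 in liver 4, 396 at the median and 570.2 in liver 3, with a mean of 421 ± 83.0 (SD, n = 8). Livers 3 and 5, at 570.2 and 525, stood above the other 6, which lay between 345 and 413. The 1.65-fold range did not pass the typical-variance test (adjusted p = 0.935). The other Dgat1 probe set read 47.7 to 180.2, and its r with the first was 0.434 (exact permutation p = 0.306, n = 8) over all livers and -0.75 without livers 3 and 5.

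Mttp encodes the microsomal triglyceride transfer protein, which loads lipid onto apolipoprotein B. It read 204 in liver 5, 426 at the median and 572 in liver 7, with a mean of 415 ± 122 (SD, n = 8). Liver 5 lay alone at the low end, with 328 in liver 8 next. The 2.80-fold range and log2 SD of 0.48 passed the typical-variance test (adjusted p = 0.00985) but not limma's (adjusted p = 0.831, unadjusted p = 0.0743). Without liver 5 the log2 SD was 0.31 and the adjusted p 0.594. Without liver 1 or liver 7 the adjusted p was 0.0560 or 0.0568, with log2 SDs of 0.47 and 0.46, close to that over all 8 livers.

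The lowest signal of 6 of the 7 tested genes lay in liver 4, 5 or 8, and that of Fabp2 in liver 3. Fabp5 and Dgat1 were lowest in liver 4, where 22.6% of all tested probe sets had their lowest signal. Lpl and Mttp were lowest in liver 5, the lowest liver for 16.1% of all, and Plin2 and Fabp1 in liver 8, for 11.8%. Liver 5 had the highest ratio of 3′ to 5′ Gapdh control signal, 0.979 in a range of 0.817 to 0.979. Its actin ratio, 1.65, and pyruvate carboxylase ratio, 4.31, lay within the ranges of the other livers, 1.25 to 1.74 and 2.93 to 8.81. The part of RNA quality in the low Lpl and Mttp signals was not tested.

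The 7 tested genes did not move as a block. Over their 21 pairs the median Pearson r of log2 signals was -0.17, against 0.00515 over all pairs of tested probe sets, and 8 of the 21 were positive. No pair had an exact two-sided permutation p under 0.05 by r, and 1 did by Spearman's rho. Of all probe sets set against each of the 7 genes, 3.49% to 13.5% had a p under 0.05 by r. None passed after adjustment over the table, which with 8 livers 1 probe set alone could not pass. The pair that passed by rank was Plin2, the droplet coat, with Lpl (r = -0.69, exact permutation p = 0.0565; rho = -0.786, exact permutation p = 0.0279). Without livers 7 and 8, r was -0.796. Over all 8 livers the adjusted p was 0.442 among all probe sets set against Lpl and 0.981 among those set against Plin2. Fabp1 and Fabp2 had r = -0.706 (exact permutation p = 0.0544, n = 8). Dgat1 had r = 0.705 with Fabp1 (exact permutation p = 0.0535), -0.689 with Mttp (exact permutation p = 0.0595) and -0.604 with Lpl (exact permutation p = 0.101). Lpl and Mttp, both lowest in liver 5, had r = 0.585 (exact permutation p = 0.130), which lay between -0.116 and 0.886 as each liver was left out.

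**Figure D3:**
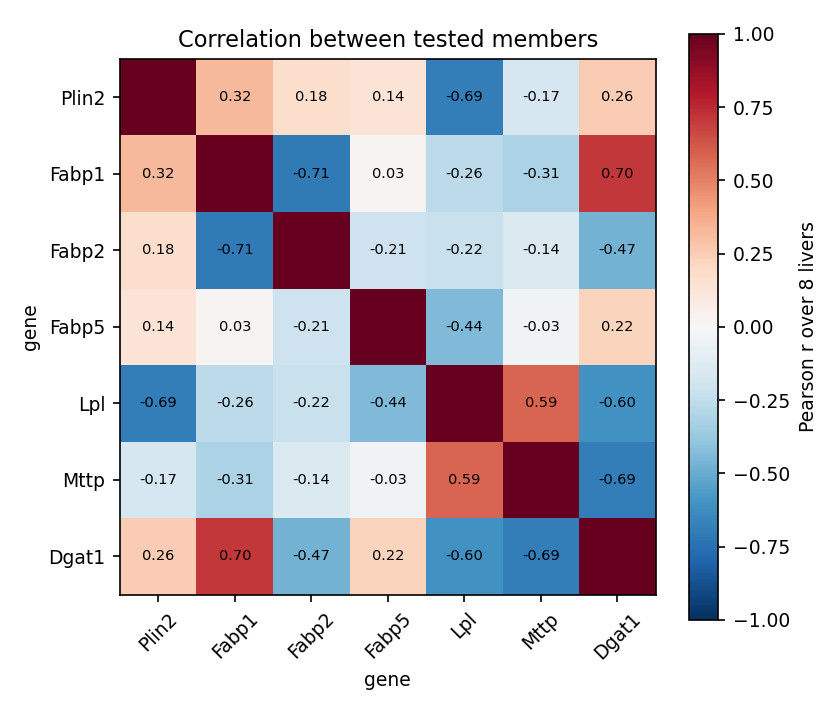
Pearson correlation of log2 signals over the 8 livers for each pair of the 7 tested genes, with colour running from -1 (blue) to 1 (red) and the value printed in each square. The lowest values are those of Fabp1 with Fabp2, Plin2 with Lpl and Mttp with Dgat1, and the highest is that of Fabp1 with Dgat1.

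Fabp5 was set against markers of macrophages, since it is made by them, and against PPARα targets, since Fabp genes include such targets. A score was the mean of a list's centred log2 signals. Macrophage markers stood highest in liver 4, with a score of 1.42, then in liver 8, with 0.82, and the other 6 livers lay between -0.73 and 0.00. Their summed signal over the 15 markers on the array was 24773 in liver 4 and 16489 in liver 8. In the other 6 livers it was 5156 to 9473. Of the tested markers 10 of 10 were highest in liver 4, beside 17.2% of all tested probe sets. Lyz2, macrophage lysozyme, ranged most, from 232 to 3563, and Clec4f, a Kupffer cell marker, least, from 986 to 1817. Of the markers not tested, Marco, Itgam and Ptprc were highest in liver 4, Ptprc by its brightest probe set. Adgre1 and Fcgr3 were highest in liver 8, at 267 and 100, against 247 and 36.4 in liver 4. PPARα targets ran the other way, with scores of -0.70 in liver 4 and -0.37 in liver 8 and of -0.03 to 0.41 in the others.

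Fabp5 was lowest in the liver with the most macrophage marker signal and the least PPARα target signal. Its r was -0.778 with the macrophage score (exact permutation p = 0.0296, rho = -0.619) and 0.776 with the PPARα score (exact permutation p = 0.0328, rho = 0.571). Both rested on livers 4 and 8, without which r was 0.0697 and -0.104. Neither passed after adjustment over the table (adjusted p = 0.221 and 0.236). The part of macrophage RNA in the low Fabp5 signal was not tested. Of 28 relations between the 7 genes and 4 scores, 3 had an unadjusted p under 0.05 and 0 an adjusted one. Of all probe sets, 17.7% had an unadjusted p under 0.05 with the PPARα score, 17.2% with the macrophage score, 3.92% with the endothelial score and 15.2% with the median intensity, so the count gives nothing particular to the group. Over the table, 1.61% of probe sets rose and 0.339% fell with the macrophage score after adjustment, and 0% did so with the PPARα score.

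**Figure D4:**
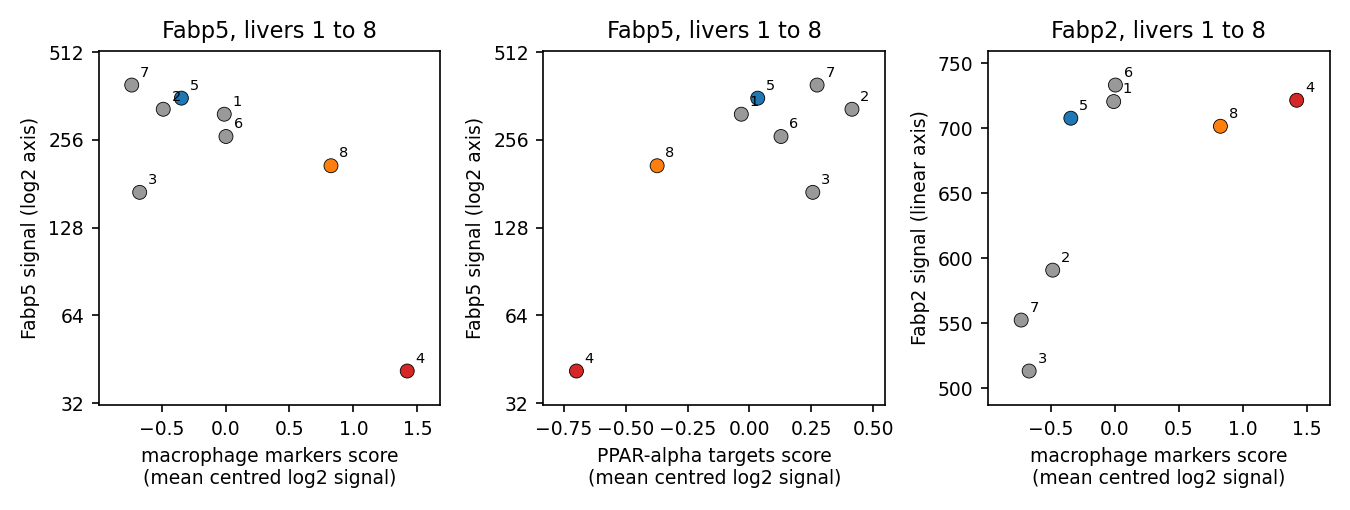
Fabp5 signal (log2 axis) against the macrophage score and the PPARα score, and Fabp2 signal (linear axis) against the macrophage score, with each of the 8 livers as a numbered point. Liver 4 lies alone at the low end of Fabp5, and the 3 livers with the lowest Fabp2 have the lowest macrophage scores.

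Fabp2 and the macrophage score had a correlation that was higher by rank than by size (r = 0.671, exact permutation p = 0.065; rho = 0.786, exact permutation p = 0.0279), with an adjusted p of 0.326. Without livers 4 and 8 its r was 0.92. Fabp2 also tended to read higher on arrays of higher median intensity. There r was 0.702, with a permutation p of 0.0551 and an adjusted p of 0.342. Leaving out livers 3 and 8, the farthest from the median intensity, gave 0.479, and leaving out livers 4 and 8 gave 0.758. Set against the PPARα score, Fabp2 had r = -0.630 (exact permutation p = 0.0890). The parts of macrophage RNA and of array intensity in the Fabp2 signal were not tested. Lpl, which liver macrophages make, had r = 0.358 with the macrophage score (exact permutation p = 0.388), and -0.387 without livers 4 and 8. Fabp1 and Plin2, known PPARα targets, had r = 0.486 (exact permutation p = 0.227) and 0.287 (exact permutation p = 0.511) with the PPARα score, and Cd36, untested for spread, had r = 0.602 (exact permutation p = 0.0927). Without livers 4 and 8 the r of Plin2 was -0.443 and that of Fabp1 0.424, and the r of Cd36 lay between 0.0917 and 0.826 as each liver was left out. Fabp4 had r = -0.0336 with the macrophage score (exact permutation p = 0.935). It had r = 0.794 with endothelial markers (exact permutation p = 0.0335, rho = 0.476), which was 0.165 without livers 2 and 5, and its signals were below the test limit.

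Other genes of the same pathways were taken from lists: 60 genes, of which 45 were on the array and 34 were tested. By the typical-variance test 4 of the 34 were called, and by limma's 0 were. That is near the 11.3% called over all tested probe sets. The 4 were Apob, Angptl4, Ces1d and Ces3a. Among the 34, 12 were lowest in liver 4 and 5 in liver 5, beside 22.6% and 16.1% of all tested probe sets. Their median fold range was 1.55, beside 1.63 over all.

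In lipoprotein assembly and clearance, 2 of 12 tested genes passed, beside 11.3% of all tested probe sets. Apob, the structural protein of secreted lipoproteins and the acceptor of lipid from Mttp, ran from 2262 in liver 5 to 11417 in liver 3, a 5.05-fold range (adjusted p = 1.25e-19). Angptl4, a secreted inhibitor of lipoprotein lipase and a PPARα target, ran from 299.5 in liver 4 to 1058 in liver 2, a 3.53-fold range (adjusted p = 6.01e-06). P4hb, the partner subunit of Mttp, read 2173 to 4198, and Scarb1, a lipoprotein receptor, 3802 to 5235, and neither passed.

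Among droplet genes 2 of 8 passed, beside 11.3% of all tested probe sets. Ces1d, a carboxylesterase that hydrolyses triglyceride, ran from 4637 in liver 4 to 12484 in liver 5 (adjusted p = 6.63e-05), and Ces3a, a related esterase, from 1485 to 3361 (adjusted p = 0.0159). Carboxylesterases are a family of near-identical genes, and the Ces1d probe set may share sequence among them. Lipe, hormone-sensitive lipase, read 161 to 388 and did not pass. Pnpla2, the adipose triglyceride lipase that acts on droplets, ranged 1.25-fold, from 2184 to 2732.

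None of the 6 genes of uptake and activation, the 3 other lipid binding proteins or the 5 genes of triglyceride assembly passed the typical-variance test. Among uptake and activation genes, the fatty acid transporters Slc27a2 and Slc27a4 read 4809.5 to 9095 and 157 to 239.9, and the acyl-CoA synthetases Acsl4 and Acsl5 read 488 to 956 and 2356 to 3564. Among binding proteins, the phospholipid transfer protein Pltp read 349 to 775, the sterol carrier Scp2 11293 to 17200.3 and the acyl-CoA binding protein Dbi 9130.1 to 13257. In triglyceride assembly, Gpam, the first enzyme, read 1663 to 2810.2, the acyltransferase Agpat1 221 to 321, and the phosphatidate phosphatases Lpin2 and Lpin1 1343 to 2673 and 679.6 to 880.3.

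Among PPARα targets 8 of 13 were lowest in liver 4, beside 22.6% of all tested probe sets. Of the 13, 5 passed the typical-variance test, beside 11.3% of all. The 5 were the fatty acid hydroxylases Cyp4a14 and Cyp4a10, at 711 to 6396 and 1819.6 to 6252, the pantetheinase Vnn1, at 78.7 to 604, the thioesterase Acot1, at 78.7 to 413, and Acadl, an enzyme of fatty acid oxidation, at 716 to 1629.9. The first 4 were lowest in liver 4, and Acadl in liver 5. The most uniform was Cpt1a, which admits fatty acids to mitochondria, at 5516 to 7774.

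Genes of the group were set beside partners that act on the same protein, particle or lipid, in 10 pairs chosen by role with these values known. Lpl and its inhibitor Angptl4 had r = -0.468 (exact permutation p = 0.244, adjusted p = 0.643). Lpl and Lmf1, the factor needed for the lipase to mature, had r = -0.724 (exact permutation p = 0.0401, rho = -0.762, adjusted p = 0.425). Leaving out livers 1 and 5 gave r = -0.762. Mttp and its acceptor Apob, both lowest in liver 5, had r = 0.381 (exact permutation p = 0.361, adjusted p = 0.894), and without livers 5 and 7 r was -0.477. Lpl and Apob had r = 0.668 (exact permutation p = 0.0659), and 0.0838 without livers 1 and 5. Mttp and P4hb had r = 0.247 (rho = 0.262, adjusted p = 0.926). Lpl and Apoc2, an activator of the lipase, had r = 0.11 (exact permutation p = 0.790). Dgat1 and Gpam had r = 0.366 (exact permutation p = 0.372). Fabp1 had r = 0.567 with Scp2 (exact permutation p = 0.139), which was -0.534 without livers 3 and 8, and 0.254 with Dbi (exact permutation p = 0.546). No pooled r is given for Plin2 and Pnpla2, since a gap of 67.8% of the Pnpla2 range split the livers. Of the 10 pairs 1 had an unadjusted p under 0.05, beside 11.3% of all probe sets set against Lpl, and 0 passed after adjustment over the table.

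**Figure D5:**
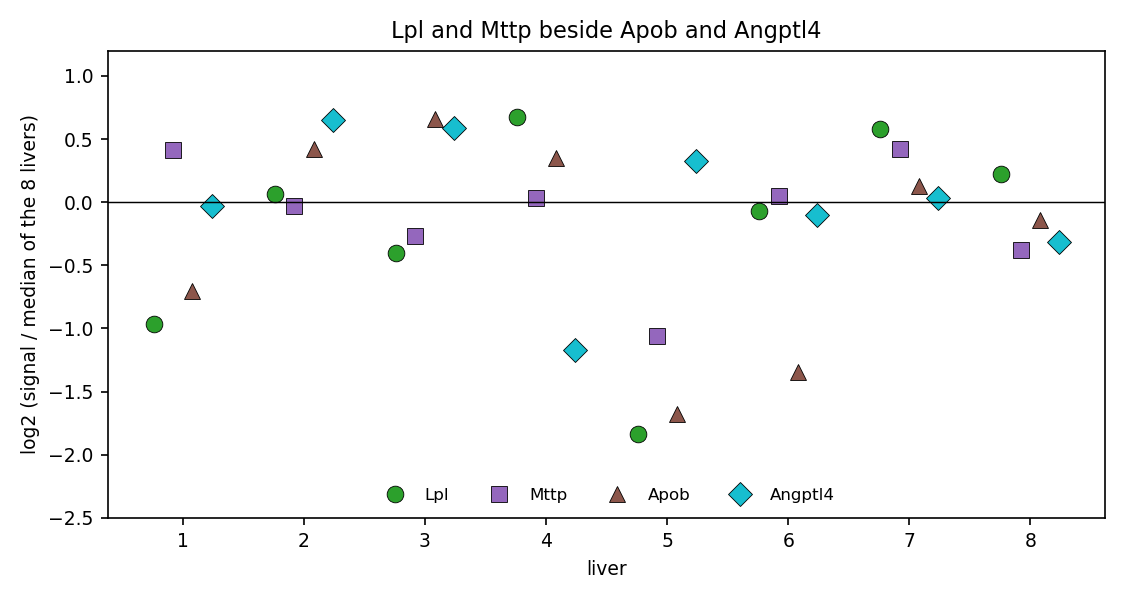
Lpl, Mttp, Apob and Angptl4 in each of livers 1 to 8, as log2 of the signal over each probe set's median over the 8 livers. Lpl, Mttp and Apob are each at their lowest in liver 5 and Angptl4 in liver 4, while Apob is also low in liver 6, where Lpl and Mttp are near their medians.

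For each tested gene, the 3 genes with the highest r and the gene with the lowest r over the 8 livers were taken from 4812 others. Among all probe sets set against each gene, 0% passed after adjustment by r. Lpl ran most like Asf1a, a histone chaperone (r = 0.986), Serinc1 (r = 0.971) and Plaa (r = 0.957), and least like Spin1 (r = -0.972). Fabp5 ran most like Bnip3, a mitophagy receptor (r = 0.975), Plppr2 (r = 0.974) and Crybb2, a lens crystallin (r = 0.972), and least like the glycolytic aldolase Aldoa (r = -0.969). Without livers 3 and 4 the r of Fabp5 with Bnip3 was 0.648. Mttp ran most like the zinc transporter Slc30a9 (r = 0.974) and the mitochondrial ribosomal proteins Mrpl11 (r = 0.962) and Mrps22 (r = 0.951), and least like Utp20 (r = -0.962).

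Fabp1 ran most like Uqcrq, a subunit of respiratory complex III (r = 0.986), Lonp1, a mitochondrial protease (r = 0.953), and Rp9 (r = 0.945), and least like the zinc importer Slc39a4 (r = -0.942). Fabp2 ran most like the leukocyte adaptor Dok2 (r = 0.962), Cd99 (r = 0.938) and Arhgap45 (r = 0.930), and least like Gas1 (r = -0.952). Plin2 ran most like Pycrl (r = 0.934), Reps1 (r = 0.930) and Ptprf (r = 0.903), and least like Cpne1 (r = -0.937). Dgat1 ran most like Gna11 (r = 0.965), Mug-ps1 (r = 0.957) and Tat, the tyrosine aminotransferase of hepatocytes (r = 0.953), and least like Thyn1 (r = -0.969). The lowest adjusted p among these 28 genes was 0.154. Dgat1 with Tat had it at a permutation p of 2.48e-05, the smallest that 8 livers allow. A gene could therefore not pass the adjustment alone, however close its correlation.

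Over the series, the median intensity of an array ranged from 155 to 180.2, and hepatocyte markers were high in all 8 livers, with a summed signal of 97173 to 133419 and Alb, albumin, at 25309.5 to 37059. Summed endothelial markers ranged from 3213 to 5497. Spike-in controls averaged a log2 signal of 8.47 to 8.67 on arrays 1 to 4 and 7.91 to 8.28 on arrays 5 to 8. The labels name no batch. Centring log2 signals within arrays 1 to 4 and 5 to 8 kept the typical-variance calls of Lpl, Fabp5 and Mttp, and the correlation of both Lpl probe sets was then 0.986.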

How the data were processed

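Liver RNA of 8 dwarf mice was hybridised to 1-colour Affymetrix U74Av2 arrays, per the labels. The deposited values are intensities per probe set on a linear scale; the image software and its scaling target are not stated in the labels, and no detection calls were used. Mean intensities after trimming 2% at each end differed by 0.00269% between arrays, so the table was used as deposited. The 8 arrays are separate mice by their titles and form 1 group.

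The 66 control probe sets were left out. Of 12422 others, 10833 carried 1 symbol in the platform annotation, 396 several and 1193 none. Values below the 10th percentile, 11.2, were set to it before log2. Variances were tested with limma 3.58.1 in R 4.3.3 against an intensity-trended robust prior with 4.90 degrees of freedom, and against the loess trend of variance on signal (span 0.3), by chi-square on 7 degrees of freedom. Correlations used all 40320 pairings of 8 livers, with adjustment over all tested probe sets. The smallest possible p was 2.48e-05, too large for 1 probe set alone to pass that adjustment.

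The genes, lists and tests were chosen with earlier results of these data known. Named genes were all genes of the group, the 3 most and 1 least similar genes of each, and in each pathway list those called, the 3 with the largest SD and the most uniform. Further genes named were markers, and partners of the group chosen by role after their values were seen. Alternatives were other scalings, floors and filters, and livers left out. The number of arrays limits the precision.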

Additional observations from a re-analysis of the deposited data

Results flagged for a closer look

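Fabp5 in liver 4, at a signal of 41.2, stood apart from the other 7 livers. Its gap to the next liver, as a share of the log2 range, was above the limit for 8 values in Dixon's test. It was the only flag among 37 probe sets examined. Chance flags about 1 in 20 groups that were not chosen by their values. The 37 included pathway genes named for their spread in these data, so that rate cannot be applied to the count. Whether this flag is chance was not tested.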

How the results depend on the processing

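The tests on the group were recomputed under 15 other settings: median scaling, quantile normalization, no floor, no filter on low values, no probe sets with shared sequence, each liver left out, livers 4 and 8 left out, and centring within arrays 1 to 4 and 5 to 8. The Lpl typical-variance call held in all of them, with a log2 SD of 0.57 to 0.91. The Fabp5 call was lost without liver 4 or without livers 4 and 8, and the Mttp call without liver 1, 5 or 7; fewer livers were used in each. limma's test called 0 probe sets of the group in every setting, and over all tested probe sets 0 in the main setting, 10 with median scaling and 21 without shared-sequence probe sets. The typical-variance test called 2 to 4 probe sets of the group. Over all probe sets it called 604 with median scaling, 528 without shared-sequence probe sets and 1021 with no filter, against 702 in the main setting. Correlations of the group with other genes or with scores passed after adjustment in 0 cases in every setting. With livers left out or with centring there are fewer pairings and the smallest possible p is larger. A pass was hardly possible there, so those settings say little on this point. The correlation of both Lpl probe sets was 0.833 to 0.986. No paired analysis was possible because there is only 1 group. Low signals may be background, since no detection calls were used.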

Other observations

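Angptl4, the lipase inhibitor, had other probe sets besides the one described. One read 268 to 626, also lowest in liver 4 and highest in liver 2. Another read 73.4 to 281, lowest in liver 7, and the last 1.3 to 45.9, lowest in liver 6, and both were highest in liver 8. Partner correlations used only the brightest tested probe set of each gene. For Scp2 that one was lowest in liver 8 and highest in liver 3, while a second read 7350 to 9774, lowest in liver 2 and highest in liver 1. For P4hb it was lowest in liver 3 and highest in liver 1, while a second read 122 to 177, lowest in liver 4 and highest in liver 5.

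The probe sets of Lep, the gene of leptin, the hormone of fat cells, differed from each other. One read 610.2 to 1388 and the other 55.4 to 167.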
